A study of Mus musculus with 10 samples.

Results

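A group of 5 genes of intracellular signalling was read from spots of a mouse cDNA membrane: Prkca, which encodes the alpha form of protein kinase C (PKC); Mapk3, which encodes the MAP kinase ERK1; Map2k1, which encodes the MAP kinase kinase MEK1; Akt1, a serine/threonine kinase also called protein kinase B; and Ywhah, which encodes 14-3-3 eta. They were chosen by the gene names printed in the files and make up 5 of the 597 named genes of the membrane, each with 2 spots per array. They were picked with the group differences of these same arrays known. Those differences and their intervals are therefore given below as description, without a p-value. The intervals are not adjusted for that choice.

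The samples were splenocytes, a mixture of the spleen's cell types, taken from mice on the FVB background killed at 6 weeks of age. There were 7 samples from mice with the genotype CD22DE12 transgenic and 3 from wild-type mice, 1 array each. CD22 is an inhibitory co-receptor of B cells. The labels do not state the promoter, species or copy number of the transgene or how many founder lines were used. The transgenic titles carry a different code each, which the labels do not explain as a mouse, so the spread between arrays may be partly technical. Radioactive cDNA was hybridised to mouse ATLAS nylon membranes, and a spot's signal is its mean grey level above a ring of local background.

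Protein kinase C alpha, activated by calcium and diacylglycerol, lies downstream of phospholipase C in B and T cell receptor signalling. MEK1 phosphorylates ERK1 at the end of the Ras, Raf, MEK and ERK cascade, and Akt1 is recruited to the membrane by the lipid product of phosphatidylinositol 3-kinase. The 14-3-3 proteins bind phosphorylated serine or threonine motifs, among them sites that Akt phosphorylates, and these kinases act mainly through phosphorylation, which an mRNA measurement does not read.

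In normalized signal, Prkca, Mapk3, Ywhah and Akt1 were higher and Map2k1 was lower in transgenic splenocytes. The samples are bulk splenocytes, so fewer cells of a type and less RNA per cell cannot be told apart. The limma test with Benjamini-Hochberg adjustment called 0 of the 5 at an adjusted p under 0.05, beside 0% of all 597 genes. Over all genes the smallest adjusted p was 0.503, and 43 genes had an unadjusted p under 0.05. Prkca was the 1 gene of the 5 whose groups did not overlap, and it was higher. Groups did not overlap in 1.68% of all genes, higher in 0.503% and lower in 1.17%. These shares are for normalized signal over all 10 arrays with an offset of 50 grey levels, explained below. Shares were not counted for other scales or for part of the arrays.

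Image quantification took place in 2 sittings by the times in the file headers. Transgenic replicates 6 and 7 belonged to the second, which held no wild-type array. Their median signals over all genes were 4.45 and 4.06 grey levels, while the first-sitting arrays had medians of 13.8 to 18.7, so raw levels are also given for the first sitting alone (5 transgenic and 3 wild-type arrays). Between 463 and 550 genes per array had at least 1 spot with the file's code 0, taken from the values as above background. Normalized Cd22 was 6.66 ± 0.13 in transgenic and 6.90 ± 0.16 in wild-type arrays (SD, n = 7 and 3; adjusted p = 0.562 by limma), which does not check the genotypes because the probed part of the gene is not stated. Unless another scale is named, log2 values carry an offset of 50 grey levels added before the logarithm, which compresses differences, most of all those of dim spots.

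Promoters from RefSeq (assembly GRCm38.p6) show the genes at issue: 300 bases each, from 250 before the annotated start to 50 after it. Of the 5 genes, 4 matched the table. The promoters of 3 are printed because they span the directions of the group differences, Prkca and Ywhah higher and Map2k1 lower. Capitals mark the GC box GGGCGG and the cAMP response element TGACGTCA, searched on both strands.
Prkca promoter, minus strand, chr11:108343839-108344138: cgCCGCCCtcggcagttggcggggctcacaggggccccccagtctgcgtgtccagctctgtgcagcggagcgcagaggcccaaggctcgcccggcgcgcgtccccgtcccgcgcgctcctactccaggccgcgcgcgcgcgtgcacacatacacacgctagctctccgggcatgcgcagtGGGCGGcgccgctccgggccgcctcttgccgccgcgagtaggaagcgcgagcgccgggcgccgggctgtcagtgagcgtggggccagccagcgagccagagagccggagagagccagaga
Ywhah promoter, plus strand, chr5:33018566-33018865: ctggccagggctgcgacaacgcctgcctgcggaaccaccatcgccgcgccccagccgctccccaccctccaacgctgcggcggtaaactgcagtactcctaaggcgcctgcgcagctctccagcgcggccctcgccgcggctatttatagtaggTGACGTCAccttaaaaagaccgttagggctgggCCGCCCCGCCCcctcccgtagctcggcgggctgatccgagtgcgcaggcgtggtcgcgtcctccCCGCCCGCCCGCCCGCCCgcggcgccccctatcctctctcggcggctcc
Map2k1 promoter, minus strand, chr9:64253556-64253855: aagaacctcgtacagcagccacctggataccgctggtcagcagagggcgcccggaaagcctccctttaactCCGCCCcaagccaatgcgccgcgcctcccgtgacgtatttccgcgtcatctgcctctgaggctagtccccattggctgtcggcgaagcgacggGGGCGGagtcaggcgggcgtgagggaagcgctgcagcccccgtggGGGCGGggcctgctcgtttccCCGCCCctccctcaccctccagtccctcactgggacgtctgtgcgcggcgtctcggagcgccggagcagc

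The Prkca window held 2 GC boxes, the Map2k1 window 4 and the Ywhah window 6, some of which overlap. A GC box occurred in 35.7% of the 32851 promoters in the table. The Ywhah window also held 1 cAMP response element, which occurred in 1.79% of promoters. The 2 Akt1 entries held 0 and 5 GC boxes. None of the 5 entries held the AP-1 site TGANTCA (7.81% of promoters) or the Egr1 site GCGGGGGCG (2.91%). These matches describe letters in a window, and the arrays do not measure binding.

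Prkca was higher in transgenic splenocytes in normalized signal, without overlap between the groups. The 7 transgenic arrays read 5.95 at the lowest, 6.03 at the median and 6.08 at the highest in log2, against 5.80, 5.91 and 5.85 on the 3 wild-type arrays. The lowest transgenic array, replicate 3, lay above the highest wild-type array, replicate 2. The difference was 0.16 ± 0.037 (SE; 95% interval 0.07 to 0.24). With no offset the transgenic arrays read 3.44, 3.85 and 4.04 at the lowest, median and highest, against 2.40, 3.26 and 2.72 in wild type. The groups again did not overlap on that scale, for which the share over all genes was not counted. The difference was 0.96 (95% interval 0.45 to 1.47).

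Before normalization, the Prkca spots lay 18.7 ± 2.55 grey levels above local background in first-sitting transgenic arrays and 11.05 ± 4.08 in wild-type arrays (SD, n = 5 and 3), a ratio of 1.69. The 5 transgenic arrays of the first sitting ran from 16.0 to 21.5, and the wild-type arrays stood at 7.85, 15.6 and 9.65, without overlap. For raw levels the share of all genes without overlap was not counted. Transgenic replicates 6 and 7 read 6.42 and 7.91 grey levels, near the lowest wild-type array at 7.85, so over all 10 arrays the raw levels did overlap. All 14 transgenic spots of Prkca had code 0, and 4 of the 6 wild-type spots did. Wild-type replicates 1 and 3 each had 1 spot without it, so the wild-type level of this gene lay near the limit of the membrane. Local background beside the Prkca spots was 48.8 ± 10.01 grey levels in transgenic and 37.8 ± 4.79 in wild-type arrays (SD, n = 7 and 3), and its part in the difference was not tested.

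**Figure D1:**
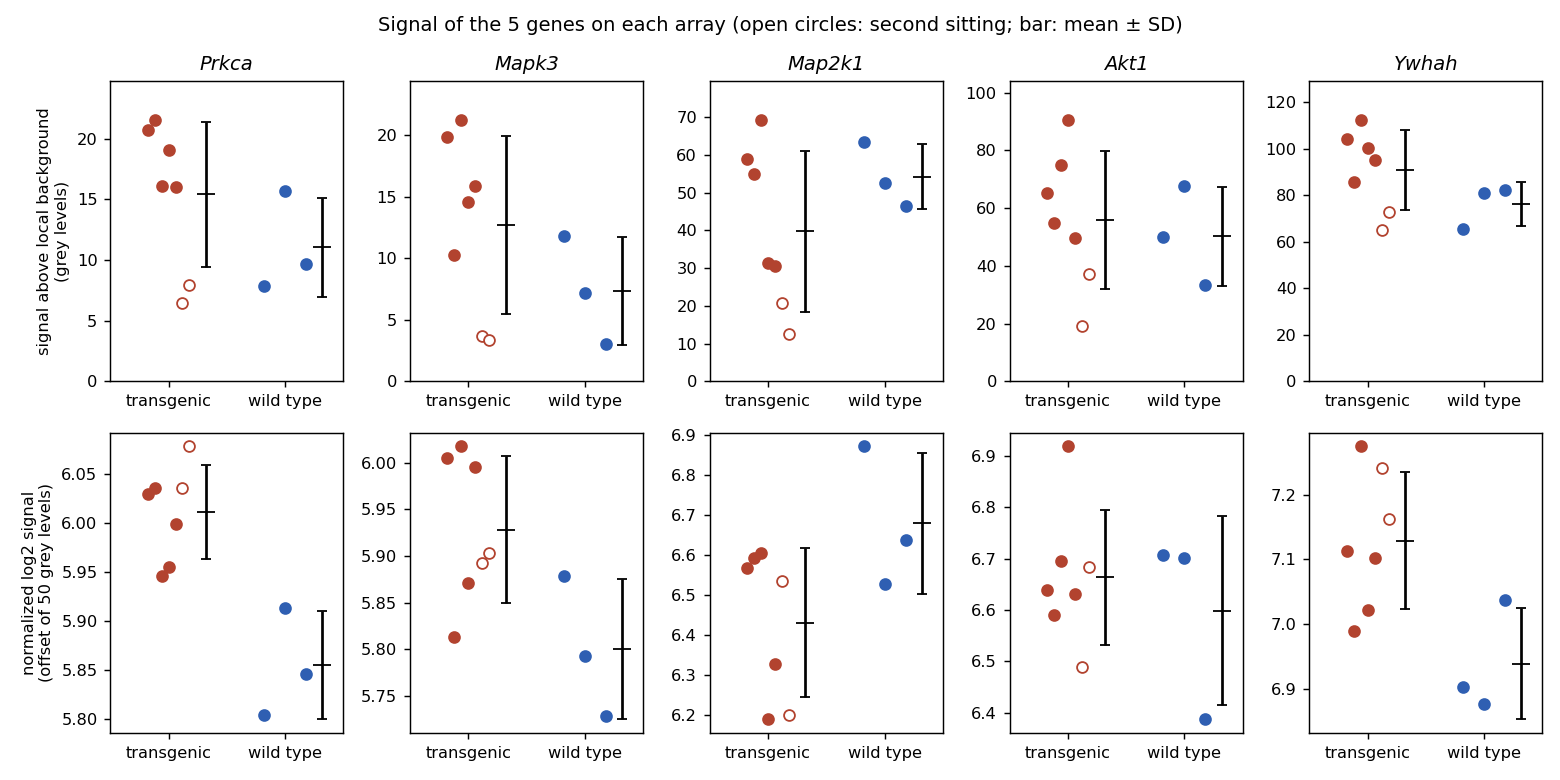
Signal of the 5 genes on each array, with transgenic arrays in red and wild-type arrays in blue; open circles are the 2 arrays of the second sitting and bars are the mean ± SD. The upper row gives grey levels above local background and the lower row normalized log2 signal with an offset of 50 grey levels; only Prkca has groups that do not overlap in the lower row, and in the upper row the second-sitting arrays lie below the other transgenic arrays for all 5 genes.

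Mapk3, the ERK1 gene, had the fewest spots of code 0 among the 5 genes, and its mean was higher in transgenic splenocytes on each scale. Normalized log2 signal in transgenic arrays was 5.81 at the lowest, 5.90 at the median and 6.02 at the highest, against 5.88, 5.79 and 5.73 in wild type. All 7 transgenic arrays lay above the wild-type mean, but the groups overlapped, since wild-type replicate 1 lay above transgenic replicates 2 and 4. The difference was 0.13 ± 0.052 (SE; 95% interval 0.01 to 0.24). With no offset it was 1.10 (95% interval 0.34 to 1.86), and it ran from 0.75 without wild-type replicate 3 to 1.54 without wild-type replicate 1.

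In grey levels Mapk3 read 16.4 ± 4.39 in first-sitting transgenic arrays and 7.35 ± 4.39 in wild-type arrays (SD, n = 5 and 3). The first-sitting transgenic arrays ran from 10.2 to 21.2, and the wild-type arrays stood at 11.8, 7.19 and 3.04, so transgenic replicate 2 lay below wild-type replicate 1. Transgenic replicates 6 and 7 read 3.68 and 3.37 grey levels, below wild-type replicates 1 and 2. They lay above the wild-type mean only after normalization. Of the Mapk3 spots, 13 of 14 transgenic and 3 of 6 wild-type ones had code 0. On wild-type replicate 3 neither spot had it, so the value there stands only for a signal not above background. On wild-type replicate 2 the duplicate spots read 0.17 and 14.2 grey levels, a gap larger than that array's mean of 7.19.

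Map2k1, the gene of the kinase that activates ERK1, was the 1 gene of the 5 with lower normalized signal in transgenic splenocytes. Its log2 signal was 6.19, 6.54 and 6.61 at the lowest, median and highest of the transgenic arrays, against 6.87, 6.53 and 6.64 in wild type. Each of the 7 transgenic arrays was below the mean of wild type, and the groups overlapped because 4 of them lay above wild-type replicate 2. The difference was -0.25 ± 0.113 (SE; 95% interval -0.50 to 0.0016). With no offset it was -0.57 (95% interval -1.22 to 0.07). Without wild-type replicate 1, the highest of the 10 arrays, it shrank to -0.16, and without wild-type replicate 2 it was -0.32.

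The transgenic arrays fell into a higher and a lower set for Map2k1 in normalized signal. Replicates 1, 2, 3 and 6 stood at 6.57, 6.59, 6.61 and 6.54, and replicates 4, 5 and 7 at 6.19, 6.33 and 6.20. Each set held an array of the second sitting, and all 14 transgenic and all 6 wild-type spots had code 0. Grey levels were 48.97 ± 17.2 in first-sitting transgenic and 54.2 ± 8.62 in wild-type arrays (SD, n = 5 and 3), a ratio of 0.903 with overlapping groups. Transgenic replicates 4 and 5 read 31.4 and 30.6 grey levels, below each wild-type array, while replicates 1, 2 and 3 read 58.8, 54.8 and 69.2, within or above the wild-type range.

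Akt1 did not differ between the groups beyond their spread. In normalized signal the transgenic arrays read 6.49, 6.64 and 6.92 at the lowest, median and highest, against 6.71, 6.70 and 6.39 in wild type. Transgenic replicate 4 was the highest of all 10 arrays and wild-type replicate 3 the lowest. The difference was 0.07 ± 0.091 (SE; 95% interval -0.14 to 0.27), with 5 of 7 transgenic arrays above the wild-type mean. Its sign rested on wild-type replicate 3, without which it was -0.04, and it was 0.02 without transgenic replicate 4. With no offset it was 0.14 (95% interval -0.38 to 0.66), and -0.09 without that array. Grey levels were 67.0 ± 16.4 in first-sitting transgenic and 50.3 ± 17.2 in wild-type arrays (SD, n = 5 and 3), with 20 of 20 spots at code 0.

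Ywhah, the 14-3-3 gene, was higher in transgenic splenocytes in normalized signal, with all 7 arrays above the wild-type mean. They read 6.99, 7.11 and 7.28 at the lowest, median and highest, against 6.90, 6.88 and 7.04 in wild type. The groups overlapped only through wild-type replicate 3, which lay above transgenic replicates 2 and 4. The difference was 0.19 ± 0.065 (SE; 95% interval 0.05 to 0.33). With no offset it was 0.31 (95% interval -0.11 to 0.74). In grey levels the first-sitting transgenic arrays ran from 85.9 to 112, and the wild-type arrays stood at 65.4, 81.1 and 82.3, without overlap. Their means were 99.5 ± 9.90 and 76.3 ± 9.43 (SD, n = 5 transgenic and 3 wild type), a ratio of 1.30. Transgenic replicates 6 and 7 read 65.2 and 72.8 grey levels, with replicate 6 below each wild-type array. Over all 10 arrays the raw levels of Ywhah therefore overlapped. The share of all genes without overlap was not counted in raw levels.

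The offset changed the size of the differences unequally. Taking it away multiplied the differences most where spots lay closest to the background, so that Mapk3 and Prkca stood at 1.10 and 0.96, while Ywhah, at 0.31, and Akt1, at 0.14, changed least. An offset of 200 grey levels gave 0.05 for Prkca, 0.04 for Mapk3, -0.10 for Map2k1, 0.03 for Akt1 and 0.09 for Ywhah. All 5 kept their sign across the 3 offsets. With no offset, limma called 0 of 597 genes, with a smallest adjusted p of 0.387 and 34 genes at an unadjusted p under 0.05. In first-sitting arrays normalized anew, the differences were 0.16 for Prkca, 0.16 for Mapk3, -0.23 for Map2k1, 0.10 for Akt1 and 0.16 for Ywhah.

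**Figure D2:**
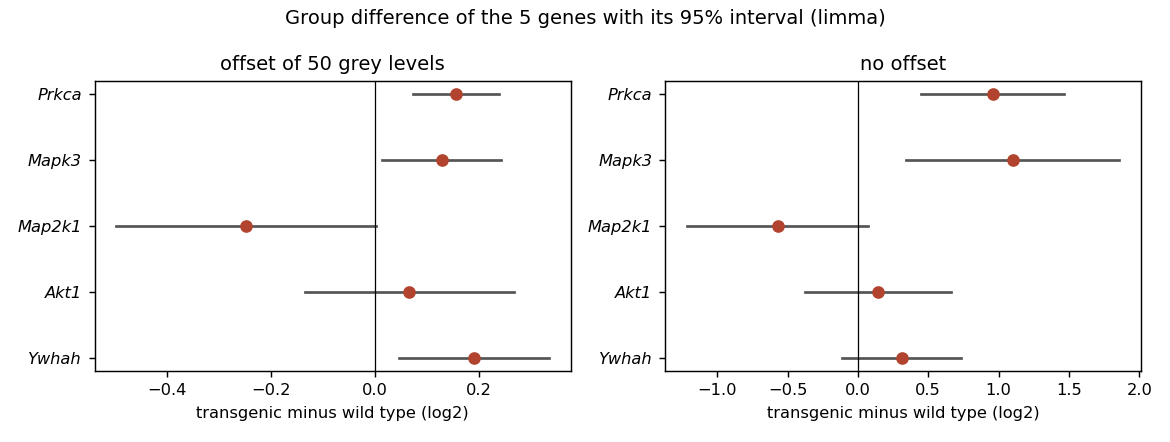
Difference between transgenic and wild-type arrays for each gene (points) with its 95% interval from limma (lines), on the log2 scale with an offset of 50 grey levels (left) and with none (right); the horizontal axes differ. The interval of Ywhah runs from 0.05 to 0.33 on the left and from -0.11 to 0.74 on the right. The genes were picked with these differences known, so the intervals are description and their place relative to 0 is not a test.

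Local background lay higher in transgenic arrays at all 5 genes. Beside Prkca it is given above; it was 53.3 ± 12.1 against 43.5 ± 11.7 grey levels beside Mapk3, 53.3 ± 13.2 against 48.1 ± 4.95 beside Map2k1, 60.0 ± 4.76 against 51.6 ± 1.57 beside Akt1 and 74.9 ± 10.7 against 60.0 ± 5.16 beside Ywhah (transgenic against wild type, SD, n = 7 and 3). The median local background over all gene spots was 45.5 ± 6.62 in transgenic and 37.0 ± 4.48 in wild-type arrays (SD, n = 7 and 3), so the higher background was not limited to these spots. With no background correction at all the differences were 0.22 for Prkca, 0.20 for Mapk3, -0.38 for Map2k1, 0.00 for Akt1 and 0.17 for Ywhah. What the background contributed to the corrected values was not tested.

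Spread within a group was widest for Map2k1 and Akt1 and narrowest for Prkca. It enters the same contrast by which the genes were chosen and is given as description. The SD between arrays within a group was 0.050 for Prkca, 0.078 for Mapk3, 0.184 for Map2k1, 0.146 for Akt1 and 0.101 for Ywhah in normalized log2 signal. The noise of a mean of 2 spots, taken from the gap between duplicates, was 0.052 to 0.056 in all 5. The SD between arrays was close to that noise for Prkca and above it for the other genes. The offset compresses the SD most where spots lie close to the background, and this order was not tested. Over all genes the median SD was 0.078 between arrays of a group. The median SD of single duplicate spots, not reduced to a mean of 2 spots, was 0.072. On that measure the 5 genes ran from 0.074 to 0.080.

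**Figure D3:**
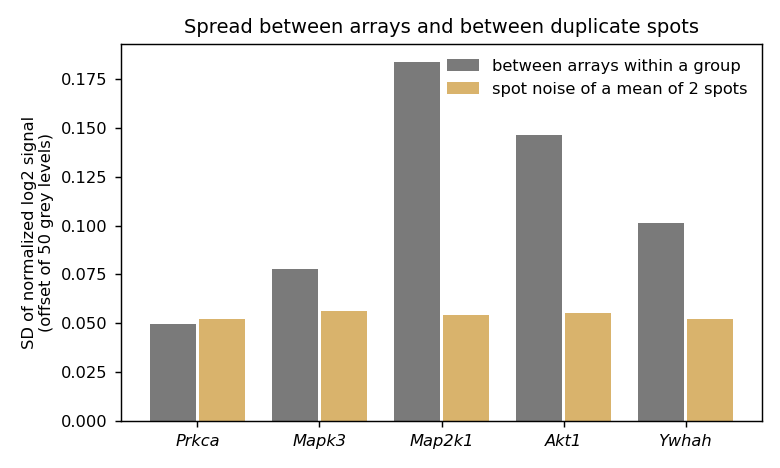
SD of normalized log2 signal between arrays of the same group (grey bars) beside the spot noise of a mean of 2 duplicate spots (yellow bars) for the 5 genes, with an offset of 50 grey levels. The bars are nearly equal in height for Prkca (0.050 and 0.052) and furthest apart for Map2k1 (0.184 and 0.054).

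Covariation was examined within the 7 transgenic arrays, where the group difference plays no part. None of the 10 pairs passed by Pearson's r or Spearman's rho (exact two-sided permutation tests over 5040 pairings, Benjamini-Hochberg over the 10 pairs), and 0 had an unadjusted p under 0.05 by either. The median r was -0.06, with 3 pairs above 0 and 7 below, against a median of -0.0005 and quartiles of -0.33 and 0.33 over all 177906 pairs of genes. Map2k1 and Akt1 had the lowest value, r = -0.62 (exact permutation p = 0.130, adjusted p = 0.665) and rho = -0.29 (p = 0.556, adjusted p = 0.794). It rested on transgenic replicates 4 and 7, the arrays farthest from the Map2k1 median, and was 0.03 without them.

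Mapk3 and Ywhah had the highest value, r = 0.55 (exact permutation p = 0.199, adjusted p = 0.665) and rho = 0.68 (p = 0.110, adjusted p = 0.794), and r was 0.42 without replicates 1 and 3. Prkca and Akt1 stood at r = -0.57 (exact permutation p = 0.180, adjusted p = 0.665) and rho = -0.57 (p = 0.200, adjusted p = 0.794), and at 0.25 without replicates 3 and 4. The kinase and its substrate, Map2k1 and Mapk3, stood at r = 0.19 (exact permutation p = 0.655, adjusted p = 0.936) and rho = 0.36 (p = 0.444, adjusted p = 0.794), and at -0.40 without replicates 1 and 3. In raw grey levels the same 10 pairs all lay between 0.562 and 0.976, with a median r of 0.758 beside 0.657 over all gene pairs. Raw values share the overall brightness of their array, which was lowest on the 2 arrays of the second sitting, and its part in these correlations was not tested.

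**Figure D4:**
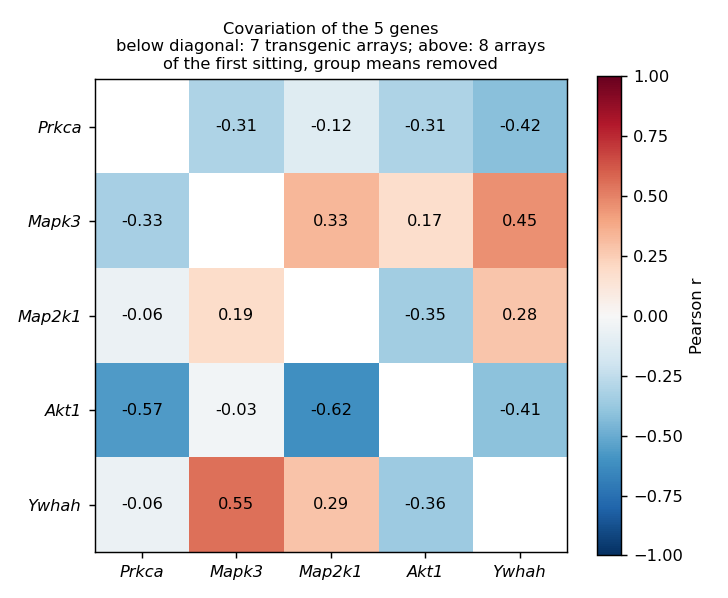
Pearson correlation of normalized log2 signal between the 5 genes, below the diagonal over the 7 transgenic arrays and above it over the 8 arrays of the first sitting with group means removed. The lowest value below the diagonal is -0.62 for Map2k1 with Akt1 and the highest 0.55 for Mapk3 with Ywhah; values above the diagonal run from -0.42 to 0.45.

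Normalized levels were also set against the median raw signal of each transgenic array, and 0 of the 5 genes passed by r or rho or had an unadjusted p under 0.05 (exact two-sided permutation tests, Benjamini-Hochberg over the 5 genes). The largest value was that of Prkca at r = -0.68 (exact permutation p = 0.0919, adjusted p = 0.452) and rho = -0.68 (p = 0.110, adjusted p = 0.548). Its normalized signal was highest on the 2 dim arrays of the second sitting, though replicate 6 barely exceeded replicate 2 (6.036 against 6.035). Without those 2 arrays the r of Prkca was -0.24. For Mapk3, Map2k1, Akt1 and Ywhah r was 0.09, 0.19, 0.52 and -0.54 over 7 arrays and -0.70, -0.23, 0.67 and -0.44 without these 2.

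Genes whose pattern was most like each member were sought by the correlation of normalized signal over 10 arrays after group means were taken away, among the genes above background on all arrays. For Prkca these were Elk4 and Foxk1, both transcription factors, and Casp1, a protease that matures interleukin 1, each at r = 0.83. For Mapk3 they were Smad2, a signal transducer of the TGF-beta family, at 0.83, Dad1 at 0.73 and Bax, a promoter of apoptosis, at 0.70. For Map2k1 they were Cdkn2c, an inhibitor of cyclin-dependent kinases, at 0.90, Faf1 at 0.77 and the interferon gamma receptor chain Ifngr2 at 0.75. For Akt1 they were the ubiquitin-conjugating enzyme gene Ube2b at 0.89, Ski at 0.88 and Cd14, a co-receptor for lipopolysaccharide on myeloid cells, at 0.86. For Ywhah they were Mapk14, the p38 alpha kinase, at 0.87, Nme2 at 0.86 and the myosin light chain gene Myl6 at 0.83. Each is the top of 356 genes compared (357 for Mapk3) and is given as a description. None of the 5 was among the 3 most alike of another. Mapk3 could not be, since it was above background on 9 of 10 arrays and was not among the genes searched.

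The other genes of these pathways showed no call in either direction. In the PKC family, 1 of the 3 measured genes other than Prkca was higher and 2 were lower, with a median difference of -0.11 (with Prkca, 2 of 4 higher and a median of -0.02). Prkcb, the main PKC of B cell receptor signalling, stood at -0.11 (standard error 0.116), and Prkcq, the PKC of T cell receptor signalling, at -0.14 (0.081). Prkcd, a PKC that needs no calcium, stood at 0.07 (0.064). Limma gave these 3 adjusted p of 0.972, 0.819 and 0.972. Of the calcium-dependent forms named here, Prkca stood above 0 and Prkcb below it, and that contrast was not tested.

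In the MAP kinase cascade, 5 of the 8 measured genes other than Mapk3 and Map2k1 were higher and 3 lower, with a median of 0.02 beside 0.002 over all genes. Mapk10, which encodes the kinase JNK3, stood at 0.03 (standard error 0.032) and Mapk14 at 0.05 (0.074). Among the MAP kinase kinases other than MEK1, Map2k3 stood at -0.06 (0.081), Map2k4 at 0.06 (0.071) and Map2k6 at 0.00 (0.034), and the p38 substrate kinase Mapkapk2 at 0.06 (0.069). Of these, Mapk10 was above background on 8 of 10 arrays and Map2k6 on 5. Adjusted p by limma were 0.972 or above for all 6.

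Of the Ras, Raf and adaptor genes, 5 of 10 were higher and 5 lower, with a median of 0.002. The small GTPase Rras stood at -0.03 (standard error 0.032), the adaptor Crk at -0.13 (0.105) and Ptpn11, the tyrosine phosphatase SHP-2, at 0.05 (0.038), with adjusted p of 0.936 or above by limma. In the PI3K, Akt and 14-3-3 list, 1 of the 3 genes other than Akt1 and Ywhah was higher and 2 were lower, with a median of -0.02 (with Akt1 and Ywhah, 3 of 5 higher and a median of 0.07). The catalytic subunit that the file names only as PI3-K p110 stood at 0.10 (0.071), the regulatory subunit Pik3r1 at -0.03 (0.060) and Bad, an apoptosis gene whose product binds 14-3-3 when phosphorylated, at -0.02 (0.036). Adjusted p were 0.935 or above, and Bad was above background on 4 of 10 arrays.

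Genes that ERK signalling is known to induce or whose products it phosphorylates were split, 5 of 11 higher and 6 lower, with a median of -0.01. Egr1, an immediate early transcription factor, stood at -0.15 (standard error 0.062, adjusted p = 0.609 by limma), Ets2 at -0.09 (0.028, adjusted p = 0.562) and Fosl2 at 0.04 (0.048, adjusted p = 0.972). Ets2 read 8.06 ± 2.30 grey levels in first-sitting transgenic and 12.6 ± 1.60 in wild-type arrays (SD, n = 5 and 3). After normalization each of the 7 transgenic arrays was below each wild-type array. Of all genes, 1.17% were lower without overlap in this way. Ets2 was above background on 9 of 10 arrays. The counts of these lists depended on the processing. Ras, Raf and adaptor genes were higher in 2 of 10 with array weights, 3 of 10 with the first spot only and 7 of 10 with no background correction. MAP kinase genes were higher in 4 of 10 with no background correction and 8 of 10 with the first spot only. With centring on the housekeeping genes, which moved the median of all genes to 0.06, 9 of 10 MAP kinase genes, 9 of 10 Ras and adaptor genes, 5 of 5 PI3K, Akt and 14-3-3 genes and 9 of 11 ERK target genes were higher, while the PKC family stayed at 2 of 4. These counts include those of the 5 genes that are on a list.

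**Figure D5:**
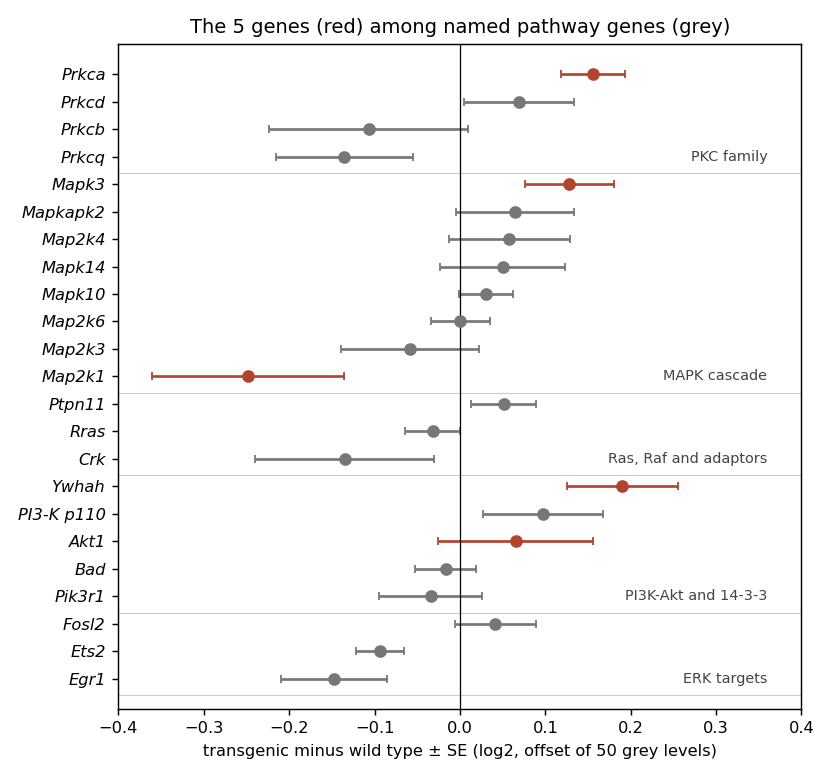
Difference between transgenic and wild-type arrays ± standard error in normalized log2 signal with an offset of 50 grey levels, for the 5 genes (red) and the named genes of the same pathways (grey), by list. Map2k1, at -0.25, and Ywhah, at 0.19, are the outermost points; 0 of the genes shown passed limma's adjusted threshold over all 597 genes.

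Markers of the cell types of the spleen were read on the same arrays. B cell markers (Cd22, Pax5, Blk, Cd40 and Pou2af1) were lower in 5 of 5, with a median difference of -0.13. Cd22, the gene named in the transgene, was the furthest from 0 at -0.24, and the part of it that is probed is not stated. Pax5 stood at -0.10, Blk at -0.07, Cd40 at -0.13 and Pou2af1 at -0.14. The summed signal of the 5 B cell markers was 231 to 303 grey levels in first-sitting transgenic and 267 to 305 in wild-type arrays. Myeloid markers were higher in 4 of 5 (median 0.11), with summed signal of 259 to 398 grey levels in first-sitting transgenic and 234 to 304 in wild-type arrays. T cell markers were higher in 2 and lower in 4 of 6 (median -0.04), stromal and endothelial markers higher in 2 and lower in 3 of 5 (median -0.01), and erythroid markers higher in 1 of 2. With no background correction, myeloid markers were higher in 2 and lower in 3 of 5 (median -0.02), and T cell markers were lower in 6 of 6. With centring on the housekeeping genes, B cell markers were lower in 4 of 5 and T cell markers higher in 4 of 6. None of these genes passed, and none was below background on all arrays. Their part in the differences of the 5 signalling genes was not tested.

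Positions on the membrane were close. Prkca, Mapk3, Map2k1 and Ywhah were printed in the same block and Akt1 in the next one. The brightest spot beside a dim gene was that of Dnajc3 next to Mapk3, with 107 grey levels in first-sitting transgenic and 84.3 in wild-type arrays and a normalized difference of 0.16. Its correlation with Mapk3 over 10 arrays after group means were taken away was 0.34. The 4 genes printed next to Prkca had correlations with it, computed the same way, from -0.75 (Gnb2) to 0.59 (Prkcb), and both of these had differences of the opposite sign, -0.07 and -0.11. Ptpn11, at r = 0.54, had a difference of the same sign, 0.05, and Map2k6, at r = -0.34, had one of 0.0005. Whether signal from neighbouring spots reached the 5 signalling genes was not tested.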

How the data were processed

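Per the labels' protocols, total RNA was reverse transcribed with 32P and hybridised to 10 membranes. Per the file headers, the deposited intensity values are mean grey levels of each spot and of its local background, not normalized; neither exposure nor the meaning of the spot codes is stated in those headers. The authors' processed table has no gene names here and was not used. Signals were corrected with normexp (offset 50 grey levels), quantile normalized over the gene spots, averaged over the 2 spots of a gene, and compared over 597 genes with limma 3.58.1 (R 4.3.3, two-sided, Benjamini-Hochberg, threshold 0.05), without a filter on dim genes. Tables and figures used Python 3.11.15, pandas 2.3.3 and matplotlib 3.10.9. The number of arrays, 7 and 3, limits the precision. Unnamed spots, 126 per array, entered the background fit alone. Normalization and the limma fit were tested on simulated data. Apart from the changes and noise put in, the simulated arrays had the same signal level, so the dim second sitting was not represented. Printed names of 85 genes were matched by hand to symbols, 84 of them present in the RefSeq table of GRCm38.p6.

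The 5 genes and all lists were chosen with earlier results of these data known. Named are the 5 genes, measured relatives of the same kinase or 14-3-3 family, per pathway list the 3 others with the smallest unadjusted p, and per gene the 3 most alike; Cd22, the marker genes and membrane neighbours were added. Alternatives covered the offset, background correction, normalization, dim genes, array weights, the sitting, single spots and single arrays left out. Leaving out arrays, or the second sitting, with no offset was chosen after seeing the data.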

Additional observations from a re-analysis of the deposited data

How the results depend on the processing

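Across 34 alternatives (33 for Mapk3, which the filter on dim genes left out) Prkca, Mapk3 and Ywhah stayed higher and Map2k1 lower in transgenic arrays; Akt1, at -0.042 to 0.12 when 1 array was left out, turned to -0.042 without wild-type replicate 3, and to -0.093 there with no offset. Differences ran from 0.05 to 1.19 for Prkca, 0.04 to 1.54 for Mapk3, -0.73 to -0.10 for Map2k1 and 0.09 to 0.39 for Ywhah, set mainly by the offset. Centring on housekeeping genes gave 0.20, 0.19, -0.15, 0.16 and 0.25 for Prkca, Mapk3, Map2k1, Akt1 and Ywhah. That setting also moved the median difference of all genes to 0.06. The count of genes past the threshold was 0 in each alternative but one: leaving out 1 array gave 0 to 1, the 1 being Rps29, a ribosomal protein gene, at -3.84 (limma adjusted p = 0.0207) with no offset and without wild-type replicate 3; it was looked up after its value was seen. The cause was not tested. Of the member pairs and of the correlations with the array median, 0 passed under each alternative run. No paired analysis was possible because the transgenic titles carry codes that the wild-type titles do not share. Signals near background limit Mapk3 and, in wild type, Prkca.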
